A study of Mus musculus with 4 samples.

Results

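Open chromatin was examined around 8 mouse genes of heme synthesis, mitochondrial iron import and iron-sulfur cluster assembly: Alas1, Alas2, Urod, Cpox, Fech, Slc25a38, Slc25a28 and Iscu. For each gene of this list, the peaks of 4 ATAC-Seq libraries that overlapped the gene or the 5000 bp on either side were merged wherever they shared at least 1 bp, and a merged region was kept when at least 2 libraries held a peak there. This gave 32 of the 137553 regions found on the autosomes and X by the same procedure.

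ATAC-Seq cuts accessible DNA with the Tn5 transposase, and a peak is a stretch where the cuts pile up. The cells were bone marrow hematopoietic stem cells, labelled ltHSC and called HSPCs by the study, enriched by c-Kit and sorted, then cryopreserved before tagmentation. The KO mice were Cpt1a-KO, made by crossing Cpt1a fl/fl with Vav1-Cre, a driver that acts throughout the blood system and not in stem cells alone. The controls were labelled WT and are described by the study as Cpt1a fl/fl, and both genotypes were on a C57BL/6 CD45.2 background. The study states in general that its mice were adult and of both sexes, without giving the sex behind each ATAC-Seq library. There were 2 libraries per genotype, and the labels do not say whether they came from separate animals. The question was how loss of Cpt1a, which encodes the enzyme that passes long-chain fatty acids into mitochondria for oxidation, altered the chromatin of these cells.

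Heme is an iron-holding ring that hemoglobin, the cytochromes of the respiratory chain and many other proteins carry. Its synthesis starts in mitochondria, where glycine and succinyl-CoA are joined by an ALAS enzyme, passes through the cytosol, and returns to mitochondria for the last steps, including the insertion of iron by ferrochelatase. Iron-sulfur clusters are built in mitochondria from the same iron pool and serve respiratory complexes, aconitase and ferrochelatase itself. Red cell precursors raise heme synthesis far above the level every cell needs, chiefly through the erythroid isoform ALAS2, while other cells rely on ALAS1.

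Of the 8 promoters, 7 held a peak in every library and 1, that of Alas2, held none in any. The promoters of Slc25a28 and Slc25a38, which import iron and glycine into mitochondria, ranked slightly lower in both KO libraries than in both controls. Those of Urod and Cpox, enzymes that act between the first and the last step of heme synthesis, ranked slightly higher. Over all genes with a promoter peak in every library, 21.4% of promoters ranked lower and 14.3% higher. Among the members, only the Urod promoter kept its order in both of the stricter peak settings given below. No region was found only in the KO libraries, and 2 weak regions, both of Slc25a28, were found only in the controls, a share of 6.25% beside 6.05% of all regions. Outside the members' own promoters, 8 of 17 regions ranked lower in both KO libraries and 2 higher, with the largest differences within Slc25a38, Urod and Slc25a28. Over the genome, regions outside the listed promoters of all protein-coding genes also ranked lower (26%) more often than higher (13.5%). With 2 libraries against 2, an exact two-sided permutation test cannot give a p under 0.333, so none of these differences could pass and all are given as descriptions.

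The promoter sequences of the genes that the results turn on are shown first, from RefSeq (GRCm38.p6). The table used matched 6 of the 8 genes, which leaves Fech and Iscu named only. Each run holds the 250 bases before the gene start, 5′ to 3′ on the gene's strand, and capitals mark exact matches on either strand to the motifs searched: AGATAA, bound by GATA factors, CCACACCC, bound by KLF factors, TGAGTCA, the core of AP-1 and NF-E2 sites, GCATGCGC, the NRF1 core, CCGGAAGT, bound by ETS factors, CACGTG, the E-box, CCAAT, bound by NF-Y, and TGACGTCA, bound by CREB. The E-box and the CREB motif read the same on both strands. Slc25a28 and Slc25a38 stand for promoters that ranked lower in KO, Urod and Cpox for those that ranked higher, and Alas2 for the one without a peak.
Slc25a28, chr19:43674882-43675131, minus strand: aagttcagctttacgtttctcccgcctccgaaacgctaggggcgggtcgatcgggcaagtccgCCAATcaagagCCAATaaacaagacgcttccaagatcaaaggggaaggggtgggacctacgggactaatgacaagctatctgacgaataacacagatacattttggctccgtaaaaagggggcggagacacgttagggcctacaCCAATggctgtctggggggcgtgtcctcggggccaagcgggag
Slc25a38, chr9:120110132-120110381, plus strand: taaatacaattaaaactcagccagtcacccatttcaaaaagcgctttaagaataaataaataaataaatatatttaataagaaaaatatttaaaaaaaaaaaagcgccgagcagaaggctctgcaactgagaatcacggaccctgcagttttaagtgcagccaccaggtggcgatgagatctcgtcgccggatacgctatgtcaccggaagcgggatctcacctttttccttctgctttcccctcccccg
Urod, chr4:116994414-116994663, minus strand: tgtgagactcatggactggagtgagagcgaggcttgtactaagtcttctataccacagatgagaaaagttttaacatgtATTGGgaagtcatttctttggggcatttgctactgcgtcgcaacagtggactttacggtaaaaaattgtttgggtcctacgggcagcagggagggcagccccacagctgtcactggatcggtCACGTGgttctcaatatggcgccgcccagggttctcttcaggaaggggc
Cpox, chr16:58669958-58670207, plus strand: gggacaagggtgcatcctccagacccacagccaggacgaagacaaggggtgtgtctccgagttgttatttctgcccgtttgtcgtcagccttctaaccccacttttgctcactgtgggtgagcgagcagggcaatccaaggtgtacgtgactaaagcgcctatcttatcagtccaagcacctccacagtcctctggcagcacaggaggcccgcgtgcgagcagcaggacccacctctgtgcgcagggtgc
Alas2, chrX:150547167-150547416, plus strand: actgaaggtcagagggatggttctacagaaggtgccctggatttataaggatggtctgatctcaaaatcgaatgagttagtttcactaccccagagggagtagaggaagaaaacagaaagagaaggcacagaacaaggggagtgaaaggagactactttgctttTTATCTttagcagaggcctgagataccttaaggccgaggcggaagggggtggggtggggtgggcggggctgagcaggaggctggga

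The Slc25a28 promoter held 3 copies of CCAAT, beginning at bases -187, -176 and -43 from the start, and that motif is common, with a match in 37.4% of the 32851 promoter windows searched, which add the first 50 bases of the transcript. Urod had 1 CCAAT on the opposite strand, from base -171 to -167, and an E-box from -49 to -44, the latter found in 7.15% of windows. Alas2 had 1 GATA match, on the opposite strand from -86 to -81, and such matches occurred in 11.2% of windows. Cpox had its AGATAA match, also on the opposite strand, just inside the transcript, from base 4 to base 9. The bases shown held no AGATAA, and other sequences with a GATA core, which they do hold, were not searched for. None of the 8 motifs matched in the Slc25a38 window.

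Alas1 has 2 starts in the table, and the stretch below is shown because it holds an NRF1 core that lies within both promoter windows. It runs from 31 to 38 bases after the first start and from -193 to -186 relative to the second, and a copy on the opposite strand overlaps it, shifted by a pair of bases. The motif occurred in 2.71% of windows.
Alas1, chr9:106247905-106247934, minus strand, NRF1 core in capitals: gcacccaaggcGCATGCGCggcggtcactc
The other motifs had no match in any of the 6 genes' windows: CCACACCC was present in 3.56% of all windows, TGAGTCA in 5.2%, CCGGAAGT in 3.89% and TGACGTCA in 1.79%. The GC content of these windows was 65.3% and 73.3% at the Alas1 starts, 60% at Slc25a28, 58.7% at Cpox, 53.3% at Urod, 52.3% at Alas2 and 45.3% at Slc25a38, against a median of 52.7% over all windows. CG dinucleotides numbered 27 and 44 at Alas1, 24 at Slc25a28, 17 at Slc25a38, 15 at Cpox, 14 at Urod and 6 at Alas2, against a median of 7. Alas2 thus had the fewest CG dinucleotides of the 6, and was the only member of the 6 below that median.

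The authors' lists hold no read counts, and the depth of each library is unknown. The lists had 240940 to 277594 summits. A −log10 q of 5 or more was reached by 42.5% and 46.8% of the control summits and by 40.5% and 35.1% of the KO summits, with KO 2 lowest. Strength was therefore compared as a percentile: the rank of a region's highest −log10 p among all regions that the same library held, from 0 for the weakest to 100 for the strongest. In sorted but bulk cells, a lower rank cannot be told apart from a smaller share of cells with the site open. The targeted gene, Cpt1a, kept its promoter peak in every library, at percentiles of 92.2 and 91.8 in the controls and 92.1 and 93.3 in KO. The markers fitted the label in part: all 8 stem cell markers (Procr, Mecom, Hlf, Kit, Gata2, Ly6a, Slamf1 and Meis1) had a promoter peak in every library, with mean percentiles from 30.4 to 96.4. The promoters of the erythroid markers Klf1, Epor, Hbb-bt, Hba-a1, Ermap and Rhag held no peak in any library. Promoter peaks in every library were also found at 3 of 5 neutrophil, 2 of 4 B cell, 1 of 4 T cell and 1 of 3 mast cell and basophil markers, with the highest mean percentile among these at 52.9, for the neutrophil gene Ltf. The promoters of 1 neutrophil, 2 B cell, 2 T cell and 1 mast cell and basophil marker had none in any library. Several marker promoters, though not those of Hlf and Meis1, differed between genotypes by more than any member promoter. Both KO percentiles were below both controls at the stem cell markers Mecom (a mean difference of −28.1), Hlf (−1.12) and Meis1 (−1.01) and above them at Slamf1 (12.9). They were also below at the neutrophil genes S100a8 (−25.2) and Ltf (−11.4), while Mpo (−11.5) and the B cell genes Cd79a (15.1) and Pax5 (17.4) overlapped between genotypes. These promoters mostly had weak peaks, those of Hlf and Meis1 excepted, and the part of the cell makeup of the libraries in the members' ranks was not tested.

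**Figure D1:**
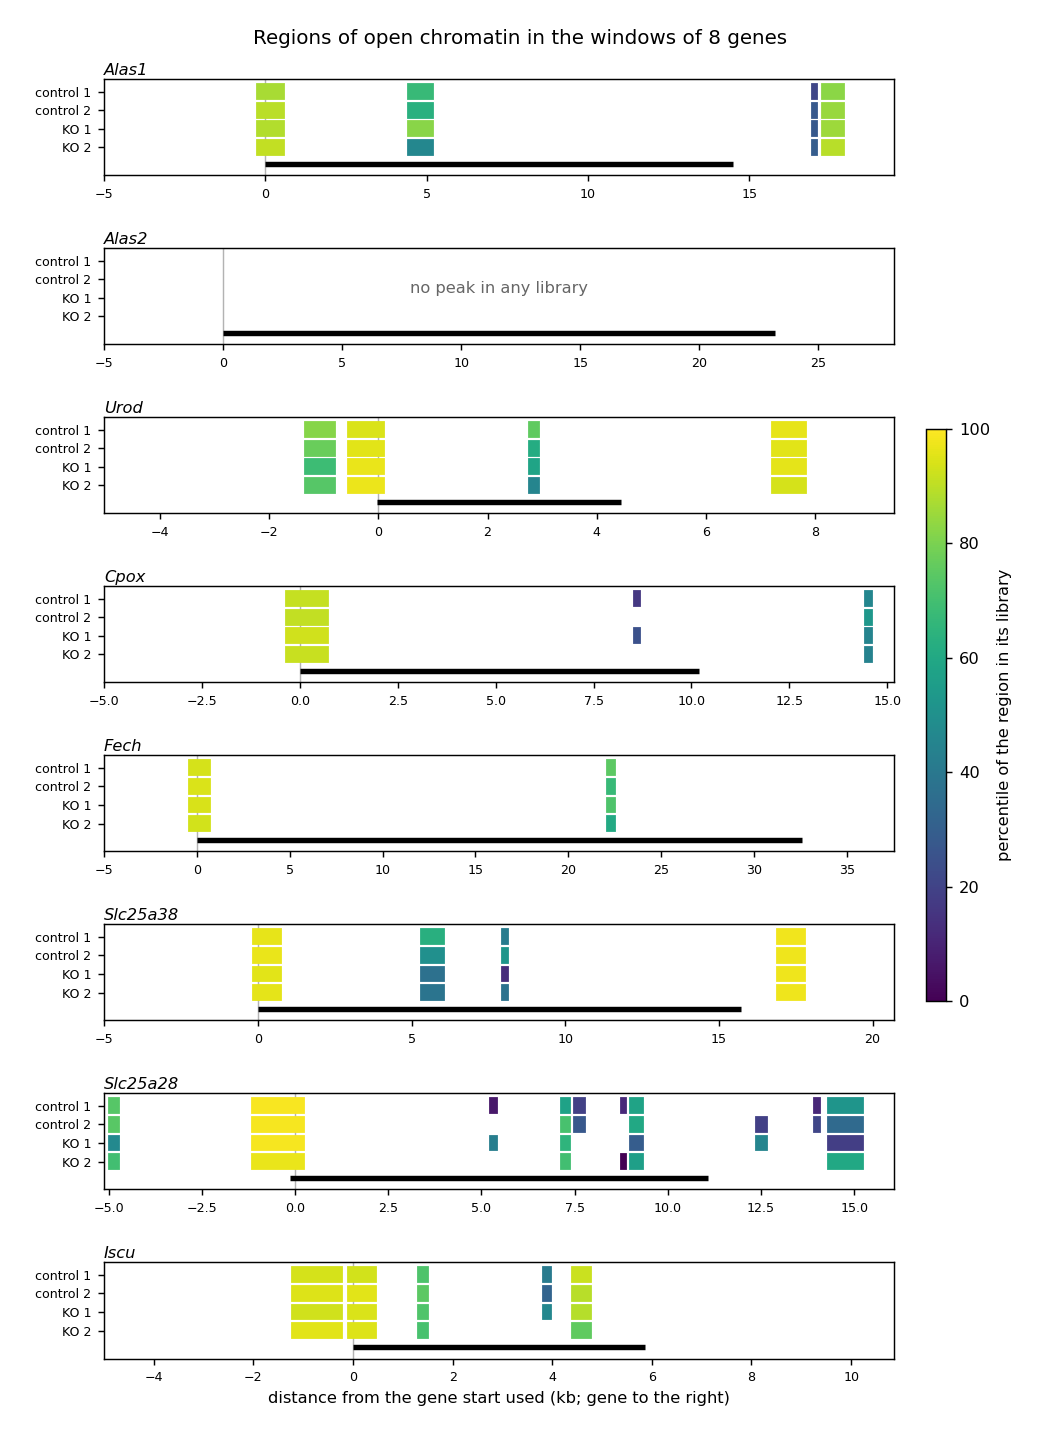
Each panel shows the window of 1 gene, drawn by distance from its start in kb (x axis) with the gene to the right as a black bar and a row per library; each block is a region with a peak in that library, coloured by its percentile from 0 to 100. Blocks at the start are bright in all 4 rows for 7 genes, Alas2 has no block, and Slc25a28 has 2 dark blocks in the control rows alone.

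Across the 32 regions, 25 (78.1%) held a peak in all 4 libraries, against 58.4% of all regions. Regions only in control, with a peak in both controls and neither KO library, numbered 2, or 6.25% of the member regions, and 6.05% of all regions met the same rule. Regions only in KO numbered 0, and 3.47% of all regions were of that kind. Of the remaining regions, 1 was in 3 libraries and 4 were in 1 library of each genotype. The share of regions private to the controls was thus close to that of the genome.

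Among the 25 regions with a peak in every library, both KO percentiles lay below both control percentiles in 10 (40%), and the same held for 25.4% of all such regions. Both KO percentiles lay above both control percentiles in 4 (16%), against 13.6% of all. The median difference, KO minus control, was −1.23 percentile points over the 25, beside −1.09 over all 80271 regions in every library, whose differences had an SD of 11.1. The balance moved with the strength required of a peak. With the 100000 strongest summits of each library, 2 member regions were lower and 3 higher, against 19.8% and 18.8% of all regions, and when a −log10 q of 5 or more was required the numbers were 5 and 2, against 32.3% and 9.03%.

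**Figure D2:**
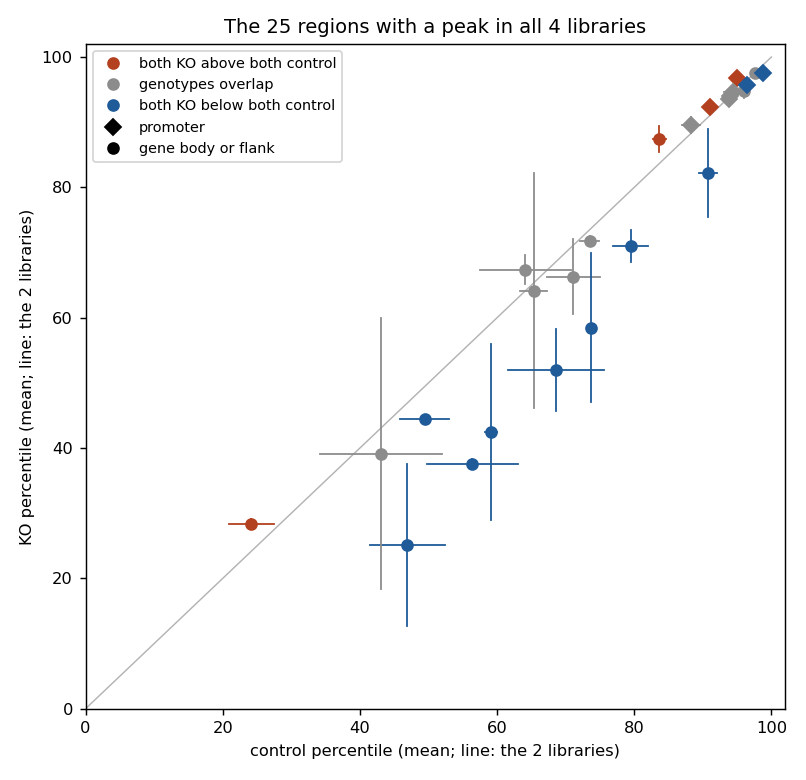
Mean percentile of each of the 25 regions with a peak in all 4 libraries in control (x axis) and KO (y axis), with lines joining the 2 libraries of each genotype, diamonds for promoters and circles for gene body or flank. The 10 blue regions, where both KO libraries are below both controls, lie below the diagonal over the whole range, the 4 red ones above it, and promoters crowd the upper right corner.

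On average over the 4 libraries, the promoter was the strongest region of each gene that had one, except at Slc25a38, where the region at the neighbouring Rpsa was stronger. The promoter regions numbered 8, since Iscu had 2, and spanned 561 to 1399 bp, with a median of 967 bp. The other 24 regions spanned 157 to 934 bp, with a median of 290 bp, against 330 bp over all regions. Mean promoter percentiles ran from 88.9 for Alas1 to 98.2 for Slc25a28. Among all genes with a promoter peak in every library, the median was 93.9 with quartiles of 83.3 and 97.3. A promoter peak in every library was found for 7 of the 8 genes, against 64.1% of 17274 protein-coding genes. Both KO percentiles were lower at 2 of the 7 promoters and higher at 2, while 21.4% and 14.3% of all such promoters were lower and higher. The median difference over the 7 was 0.35 percentile points, with 4 of 7 higher in KO on average, against a median of −0.19 and an SD of 4.91 over all promoters.

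**Figure D3:**
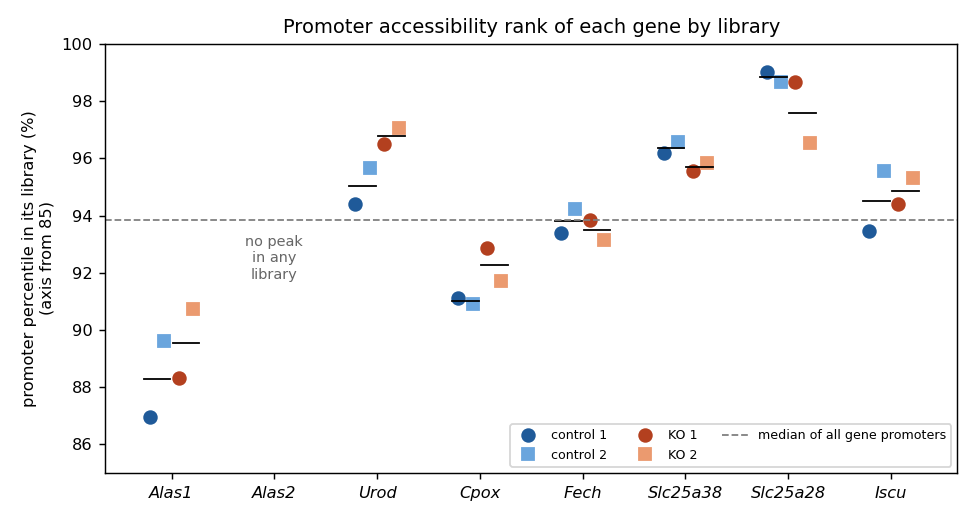
Promoter percentile (y axis, from 85 to 100) of each gene in the 4 libraries, with circles and squares for the libraries 1 and 2 of each genotype, black lines for genotype means and a dashed line for the median of all promoters, 93.9. The control and KO points are apart at Urod, Cpox, Slc25a38 and, by a narrow margin, Slc25a28, and they interleave at Alas1, Fech and Iscu.

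The members were taken in the order of the pathway. Alas1 (gene ID 11655, mm10 chr9:106233455-106247954, minus strand) encodes the isoform of the first and rate-setting enzyme that most cells use. Its promoter region, chr9:106247380-106248197, which also overlaps the annotated gene 4930500F10Rik, had percentiles of 86.94 and 89.62 in the controls and 88.31 and 90.74 in KO. The genotypes overlapped, with means of 88.3 ± 1.89 and 89.5 ± 1.71 (SD, n = 2 each). The authors' fold, the signal at the summit over the background of the same library, was 10.3, 11.8, 11.1 and 12.3 in the same order. A region within the gene, 4811 bp from the start, stood at 67.34, 63.41, 82.19 and 46.1, so that the KO libraries lay on either side of both controls.

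Beyond the 3′ end of Alas1, in sequence with no gene in the table, lay 2 further regions in every library. The larger, chr9:106230029-106230694, had percentiles of 82.69 and 84.59 in control and 85.4 and 89.44 in KO, a mean difference of 3.78. The smaller, chr9:106230853-106231014, had 20.92 and 27.45 in control and 27.62 and 29.16 in KO, a mean difference of 4.21, with KO 1 barely above control 2. Both were higher in KO, and they were the only member regions outside promoters with that order. The larger stayed higher in both stricter settings, with −log10 q of 30.2 and 38.03 in control and 35.02 and 36.05 in KO.

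Alas2 (gene ID 11656, chrX:150547417-150570622, plus strand) encodes the erythroid isoform. No library had a peak anywhere in its 33206 bp window. The nearest peak on the far side of its end lay 17284 to 17324 bp away in all 4 libraries, and that before its start lay 7108 bp away in control 2 and 35680 to 35870 bp away in the others. Having no peak in the window was found for 13% of 21631 protein-coding genes and 37.9% of the 966 on the X. Among the 9084 genes with a window at least as long it was found for 3.25%. The genotypes could not be compared at Alas2, since both were without a peak, and a weak open site below the threshold of the lists (−log10 p of 2) would not appear.

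Urod (gene ID 22275, chr4:116989965-116994436, minus strand) encodes uroporphyrinogen decarboxylase, a cytosolic enzyme of the pathway. The promoter region, chr4:116994305-116994963, which holds the E-box shown above, had percentiles of 94.4 and 95.68 in control and 96.49 and 97.06 in KO. The KO mean of 96.8 ± 0.401 was 1.74 points above the control mean of 95.04 ± 0.900 (SD, n = 2 each), and both KO libraries stayed above both controls in both stricter settings. The fold was 13.1 and 15.1 in control and 17.4 and 16.7 in KO.

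The other regions of Urod were not higher in KO. A region of 180 bp within the gene, 2851 bp from the start, had percentiles of 75.61 and 61.64 in control and 58.24 and 45.67 in KO, a mean difference of −16.7. A region centred at -1068 bp from the start, within the neighbouring gene Hectd3, had 82.01 and 76.98 in control and 68.56 and 73.48 in KO, a mean difference of −8.48 that kept its order in both stricter settings. At Urod the promoter was thus higher and both of these sites lower in KO. The region in Zswim5, 7512 bp from the Urod start, stood at 96.25, 95.66, 95.83 and 93.67, and its genotypes overlapped.

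Cpox (gene ID 12892, chr16:58670208-58680391, plus strand) encodes coproporphyrinogen oxidase, which acts in the space between the mitochondrial membranes. Its promoter region, chr16:58669848-58670920, had percentiles of 91.11 and 90.89 in control and 92.85 and 91.7 in KO. The means were 91.0 ± 0.159 and 92.3 ± 0.812, a difference of 1.27 with both KO libraries higher, though the genotypes overlapped at a −log10 q of 5 or more, at 82.2 and 82.4 against 85.64 and 81.53. A region 14515 bp from the start, past the end of the gene, had 45.87 and 53.0 in control and 45.14 and 43.75 in KO. A weak region in the gene was present in control 1 (16.33) and KO 1 (24.95) only.

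Fech (gene ID 14151, chr18:64456542-64489098) encodes ferrochelatase, which inserts iron into protoporphyrin at the inner mitochondrial membrane. Its start was taken as the end of the gene that lay in a region, and the other end lay in none. That region, chr18:64488412-64489536, had percentiles of 93.39 and 94.23 in control and 93.84 and 93.16 in KO. The means of 93.8 ± 0.594 and 93.5 ± 0.480 differed by less than the spread between libraries. The region within the gene, 22284 bp from that end, had 74.99, 67.25, 72.09 and 60.53, also with overlap. No region of Fech separated the genotypes.

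Slc25a38 (gene ID 208638, chr9:120110377-120126093, plus strand) encodes the mitochondrial carrier that brings in glycine for the first step of heme synthesis. Its promoter region, chr9:120110210-120111151, had percentiles of 96.18 and 96.57 in control and 95.57 and 95.84 in KO. The control mean was 96.4 ± 0.280 and the KO mean 95.7 ± 0.190, a difference of −0.67 that kept its order at a −log10 q of 5 or more and overlapped with the 100000 strongest summits (91.39 and 92.47 against 90.49 and 91.52).

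The largest differences of all member regions lay within Slc25a38. A region of 206 bp, chr9:120118327-120118532, had percentiles of 41.42 and 52.42 in control and 12.7 and 37.54 in KO, a mean difference of −21.8 with an SD of 7.78 and 17.6. A wider region, chr9:120115702-120116452, had 63.04 and 49.72 in control and 36.86 and 38.33 in KO, a difference of −18.8. Both were lower in both KO libraries. Their −log10 q was low, 4.04 and 7.31 against 1.34 and 2.69 for the first and 10.3 and 6.56 against 3.33 and 2.84 for the second, so that at a −log10 q of 5 or more the second was found only in control. The fourth region, at the neighbouring Rpsa, a ribosomal protein gene, ranked nearly alike in the 4 libraries, from 97.4 to 97.7.

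Slc25a28 (gene ID 246696, chr19:43663801-43675006, minus strand) encodes a mitoferrin, a carrier that brings iron into mitochondria in most tissues. It had the strongest promoter of the 8 and the most regions, 10. The promoter region, chr19:43674630-43676028, which also overlaps the annotated gene BC037704 and holds the 3 CCAAT copies shown above, had percentiles of 99.03 and 98.67 in control and 98.66 and 96.53 in KO. The means were 98.9 ± 0.254 and 97.6 ± 1.51. The order rested on KO 2, since KO 1 was below control 2 by the second decimal only, and with the 100000 strongest summits the genotypes overlapped (97.81 and 97.08 against 97.13 and 92.92). By fold, KO 1 at 13.9 was above both controls, at 13.4 and 12.7, and KO 2 was at 10.9.

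The regions found only in control were both at Slc25a28 and both weak. One, chr19:43667089-43667384, lay within the gene, 7645 bp from the start, with percentiles of 19.26 and 27.21 and −log10 q of 1.62 and 2.71. The other, chr19:43660800-43660963, lay past the end of the gene, with percentiles of 11.31 and 20.86 and −log10 q of 1.12 and 2.24. Neither KO library had a peak at either site. With the 100000 strongest summits, or with fixed windows around summits, no member region was found only in control.

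A pair of further Slc25a28 regions were lower in KO, in each case mainly in KO 1. The region 9157 bp from the start, within the gene, had percentiles of 58.19 and 60.06 in control and 29.03 and 55.96 in KO, a difference of −16.6. The region at -4851 bp from the start had 73.52 and 74.01 in control and 47.02 and 69.9 in KO, a difference of −15.3. Control libraries were close to each other at both sites, while the KO libraries were apart by more than the difference between the genotype means. At the 3′ flank, 14770 bp from the start, the percentiles were 52.02, 34.13, 18.33 and 59.9, and at 7255 bp they were 57.53, 70.72, 65.1 and 69.62, with overlap at both. The other 3 regions were each in 1 library per genotype, at percentiles of at most 45.55.

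Iscu (gene ID 66383, chr5:113772418-113778288) encodes the scaffold protein on which iron-sulfur clusters are first assembled. Its start was taken from the gene end that lay in a region, as for Fech. The region over that end, chr5:113772322-113772882, had percentiles of 93.12 and 95.56 in control and 94.4 and 94.9 in KO. The region before it, chr5:113771197-113772188, had 93.45 and 94.6 in control and 92.69 and 95.32 in KO. Both overlapped between genotypes, and both also overlap the annotated gene Sart3, so they cannot be assigned to Iscu alone.

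Within Iscu, a strong region 4589 bp from the start, chr5:113776812-113777202, had percentiles of 92.03 and 89.45 in control and 88.94 and 75.51 in KO. The difference of −8.52 came mainly from KO 2, whose −log10 q of 14.1 there was below the 47.6 of KO 1 and the 72.7 and 57.8 of the controls. The order held in both stricter settings. A region 1402 bp from the start overlapped between genotypes, at 72.15, 74.9, 72.55 and 70.94. A region 3891 bp from the start was in both controls and KO 1, at 41.28, 32.01 and 46.24, and not in KO 2.

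Outside the members' own promoters, every library held 17 regions, of which 8 were lower in both KO libraries and 2 higher. Over the genome, 26% of 69466 regions outside promoters were lower and 13.5% higher. Those 69466 leave out the listed promoters of all protein-coding genes. The 17 leave out only the members' own and can hold promoters of neighbouring genes, so the sets are not fully alike. The median difference over the 17 was −4.81 percentile points, with 14 lower and 3 higher on average, against −1.66 for the 69466. Within gene bodies, 5 of 9 were lower and 0 higher, and in the flanks 3 of 8 were lower and 2 higher. The share over all genes was not computed for gene bodies or flanks, so no difference between them can be read from these counts. Of the 5, only the Iscu region was still held by every library, and lower in both KO libraries, in both stricter settings. The KO lists also held a smaller share of summits at a −log10 q of 5 or more, and the part of this in the ranks was not tested.

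The other genes of heme and iron handling were taken from a list of 57 genes that includes the 8, leaving 49 genes with 221 regions. Both controls and neither KO library held 10 of these regions (4.53%), and the reverse was true of 8 (3.62%). Of the 136 in every library, 37 (27.2%) were lower in both KO libraries and 14 (10.3%) higher. These shares of regions were close to those of all regions. Of the 25 member regions, 40% were lower, but with the 100000 strongest summits 2 member regions were lower and 3 higher. The promoters of the other genes held a peak in every library for 46 of 49, against 64.1% of all protein-coding genes. Both KO libraries were lower at 7 of the 46 and higher at 4, where 21.4% and 14.3% of all such promoters were lower and higher.

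**Figure D4:**
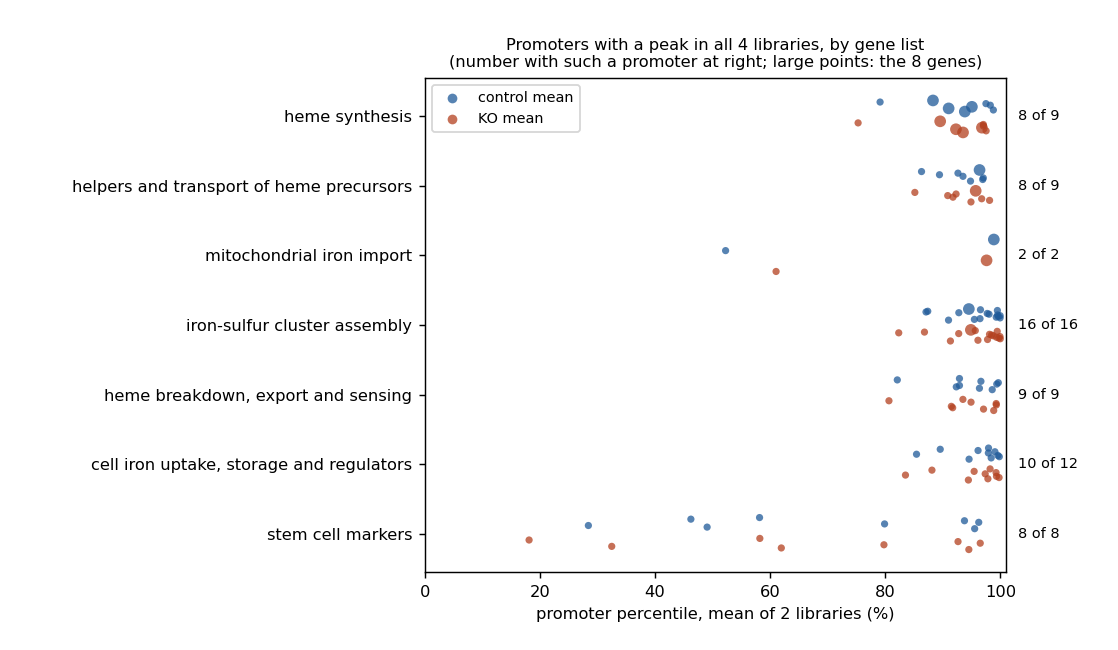
Promoter percentile, as the mean of the 2 control (blue) or 2 KO (red) libraries (x axis), for genes of each list (y axis) whose promoter had a peak in all 4 libraries, with the number of such genes at the right and the 8 genes as large points. Most points of the heme and iron lists lie above 80 in both colours, whereas the stem cell markers spread over most of the range.

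Of the other heme synthesis genes, Uros, the enzyme before Urod in the pathway, had 2 regions only in control, and its promoter was lower in KO, at 98.1 and 98.4 against 96.6 and 97.4. The promoter of Ppox, the enzyme between Cpox and Fech, was also lower, at 98.59 and 98.95 against 96.65 and 98.37. Among transporters of heme precursors and their helpers, Abcb10, Abcg2 and Pgrmc1 each had 1 region only in control. Both enzymes that flank Urod and Cpox were thus lower where those were higher, by differences of −1.20 and −1.26 points.

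Slc25a37, the mitoferrin of red cell precursors and the only other gene of mitochondrial iron import in the list, contrasted with Slc25a28 in promoter strength. Its promoter percentiles were 49.15 and 55.35 in control and 67.04 and 55.0 in KO, at the stronger of its gene ends, far below the 96.53 to 99.03 of Slc25a28, and the genotypes overlapped. It had 15 regions, 1 only in control and 1 only in KO. Of its 6 regions in every library, 3 were lower in both KO libraries and 0 higher. At Slc25a28, 3 of 5 were lower and 0 higher, beside 25.4% and 13.6% of all regions in every library. In both pairs, Alas1 with Alas2 and Slc25a28 with Slc25a37, the isoform for red cells had the weaker promoter as read here. Slc25a37 had no listed start, so its promoter may lie elsewhere among its regions.

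In iron-sulfur cluster assembly, all 16 promoters had a peak in every library, with a median percentile of 97.5. Fdxr and Isca1 each had 1 region only in control, while Nfs1, the cysteine desulfurase that supplies sulfur to ISCU, and Fdx2 each had 1 only in KO. Hmox2, a heme-degrading oxygenase, had 2 regions only in KO. Of genes of iron uptake and storage, Fth1 had 1 only in control, Ftl1 and the iron exporter Slc40a1 1 only in KO each, and Aco1 1 of each kind. Promoters without a peak in every library were those of Tspo2 and Ftmt, with none, and Slc11a2, an iron importer read at its gene ends, with peaks at 18.9, 4.85 and 21.1 in the controls and KO 1 and none in KO 2.

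For members with a promoter peak, the gene of the list with the nearest set of 4 promoter percentiles was found among 52 genes, by the mean absolute difference. These were Ncoa4 for Slc25a28 (0.414 points), Steap3 for Slc25a38 (0.374), Bach1 for Urod (0.883), Abcb6 for Cpox (1.02), Hmox1 for Fech (0.632) and Fech for Iscu (1.03). Bach1, a heme-sensing repressor, had 96.4 and 96.3 in control and 97.2 and 96.9 in KO, with both KO libraries above both controls as at Urod, though the order within each genotype differed. Close levels are enough for a small value of this measure.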

How the data were processed

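The members and gene lists were chosen with earlier results of these data known. Reads were not used here. Per the submitters' processing notes, Bowtie2 and MACS2 were used with mm10, and peaks were called on each library separately. The authors deposited, for each summit, a fold (a ratio to the library's background), −log10 p and −log10 q values, and a score, which was not used. The files hold no counts, so depth and precision are unknown. The study's own test (DiffBind with edgeR) needs reads and could not be run.

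Intervals were merged, ranked and counted in pandas 2.3.3 and numpy 2.4.6 under Python 3.11.15, and figures were drawn with matplotlib 3.10.9. Ranks used the highest −log10 p per region, tied values sharing a rank. The gene table (GRCm38.p6, matching mm10) gave positions without strand or exons. A promoter ran from 250 bases before to 50 after each listed start, or for genes without one, from either gene end. The merging and calls were checked on simulated lists. Named were the 8 members, other listed genes with a region only in 1 genotype or a promoter not in all 4 libraries, the nearest gene to each member, Cpt1a and the markers. Some genes that this rule covers are not reported here. Uros and Ppox promoters, Hectd3, Zswim5, Rpsa, Sart3 and the regions detailed beyond this rule were chosen after their values were seen. Alternatives were a −log10 q of at least 5, lists of equal length (240881 summits), the 100000 strongest summits, a flank of 1000 bp, coverage of a share of 0.5, windows of 200 bp beside summits, ranks by fold or among promoters, leaving out each library and, chosen after seeing the data, genes with a listed start only.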

Additional observations from a re-analysis of the deposited data

How the results depend on the processing

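No paired analysis was possible because the results come from no test and the labels do not say that a replicate number marks a shared animal, batch or day. The 7 promoters with a peak in every library numbered 7 also at the stricter q, with the 100000 strongest summits and without each library, the settings in which they were counted. Regions only in control numbered 2 as reported, 1 with a −log10 q of at least 5 (at Slc25a38), 0 with the 100000 strongest summits, 1 with a flank of 1000 bp, 0 with windows around summits and 2 to 7 when a library was left out (7 of 30 without control 2, where 20.6% of all regions were of this kind, and 4 of 29 without control 1, against 15.8%). Regions only in KO numbered 0 to 4 when a library was left out (4 of 29 without KO 1, against 21.5% of all, and 3 of 31 without KO 2, against 21.2%) and 0 otherwise. A single library then stood for its genotype, and fewer libraries have to hold the peak. Regions in every library fell from 25 to 16 of 22 with the stricter q and to 16 of 20 with the strongest summits. Regions whose ranks did not overlap numbered 14 as reported, 7 and 5 in those settings, 10 by fold and 17 to 22 when a library was left out. By fold, 7 were lower in KO and 3 higher, beside 24.1% and 14% of all regions in every library, and without KO 1, 15 of 25 were lower and 7 higher, beside 45.5% and 27.6%. The median promoter difference of 0.35 points was 1.47 with the strongest summits and over the 5 promoters with a listed start 1.25, or 3.16 when these were ranked among promoter regions only. When a library was left out, the median over the 7 ranged from −0.65 (without control 1) to 1.43 (without control 2), so leaving out control 1 turned its sign. Sites below the −log10 p of 2 that the lists require cannot be seen, and no interval can be given without depth.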

Other observations

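The windows of the 8 genes also held 14 merged regions with a peak in 1 library only, which entered no comparison. They were 5 in control 1, 2 in control 2, 3 in KO 1 and 4 in KO 2. Fech had 6 of them, more than its 2 regions shared between libraries, while Alas1, Urod and Slc25a38 had 2 each and Cpox and Slc25a28 had 1 each. Iscu and Alas2 had 0. At Slc11a2, which encodes the iron importer of the plasma membrane and endosome, all 4 regions held by every library were lower in both KO libraries than in both controls, beside 25.4% of all such regions, and the gene was picked out of the 57 for this count after the values were seen.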
